A study of Sus scrofa with 8 samples.

Results

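The genes described here are 9 regulators of cell cycle arrest and cell death, namely the p53 targets CDKN1A, MDM2, BAX and BBC3, the survival genes BCL2, BCL2L1, BCL2A1 and MCL1 of the BCL2 family, and the initiator caspase CASP8. They were found by their symbols in the deposited table of hepatic gene expression, where each symbol had exactly 1 row, and they make up 9 of the 18103 genes listed. Hepatic RNA came from male Landrace x Large White pigs and was sequenced in 8 libraries, each a pool of 2 pigs. A set of 4 pools came from healthy livers of the initial state, at an age of 4 months, and the other 4 pools came from steatosis, at 6 months of age and after 2 months on a diet rich in saturated fat, fructose, cholesterol and cholate and poor in methionine and choline. By the study's methods the animals of both groups were the same and all were sampled after an overnight fast and under anaesthesia, but the initial livers were sampled by biopsy and the final ones after euthanasia, so that diet, age and the way of sampling cannot be told apart.

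The tumour suppressor p53 is a transcription factor that is stabilized when DNA is damaged or a cell is otherwise stressed, and that then activates genes of cell cycle arrest, DNA repair and apoptosis. Apoptosis can start inside the cell, when BAX and its relative BAK1 open the outer mitochondrial membrane, or at the cell surface, when death receptors such as FAS activate CASP8. The survival proteins BCL2, BCL-xL (encoded by BCL2L1), BCL2A1 and MCL1 hold the mitochondrial route in check, and they are in turn bound and blocked by small BH3-only proteins such as PUMA (encoded by BBC3). Hepatocytes depend on BCL-xL and MCL1, and death of fat-laden hepatocytes is a recognized feature of steatohepatitis.

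Expression is given as FPKM, the fragments mapped to a gene in relation to transcript length and to all mapped fragments, so that levels of different genes may be compared. Both groups entered a limma fit on log2(FPKM + 0.1) of the 13175 genes that reached 0.3 FPKM in 4 or more of the 8 libraries, a filter that all 9 genes passed. A gene is said to have risen or fallen where its Benjamini-Hochberg adjusted p over all genes tested was under 0.05, and to be past both limits where the adjusted p was under 0.01 and the log2 fold change beyond 1. A replicate is a pool of 2 pigs, so that SD and p values measure the spread between pools. The relative depth of the libraries was between 91.7% and 100% of the deepest. It was estimated from the median of FPKM times length over genes of 400 to 600 bp with low but non-zero values. Pools 1 and 4 of the initial state lay at opposite ends of the second principal component (16% of the variance), and results that rest on either of them are given without it. Hepatocyte genes were abundant, with ALB at 50413.2 FPKM on average in the initial state and 37498.6 in steatosis.

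In steatosis, 7 of the 9 genes rose and none fell, and in these 7 every steatosis pool lay above every initial pool. BCL2A1, BBC3 and BCL2 changed most, with means 3.35, 2.9 and 2.11 times those of the initial state, and these 3 were past both limits. BAX, BCL2L1, MDM2 and MCL1 rose by less, between 1.24 and 1.78 times. In each of the 7 the exact permutation test of the means gave a two-sided p of 0.0286, the smallest that 4 pools against 4 allow. That test takes all pools as independent and leaves the pairing of same-numbered pools aside. CDKN1A and CASP8 did not pass the test, and their groups overlapped. The median log2 fold change of the 9 genes was 0.83, whereas that of all genes tested was 0.25, and 7 of the 9 lay above the upper quartile of all genes (0.53).

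These counts are to be read against the general direction of the comparison. Over all genes tested 6.01% were past both limits and higher in steatosis and 0.334% past both limits and lower, against 33.3% and none of the 9 genes. At an adjusted p under 0.05, 26.7% of all genes rose and 2.28% fell, against 77.8% and none of the 9. In 29.6% of all genes tested every steatosis pool was above every initial pool. When libraries were scaled by median ratio (the median, over genes, of a library's value against the average of all), the median of all genes went from 0.25 to -0.01, and then 6 of the 9 genes rose and 2, BCL2A1 and BBC3, were past both limits.

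**Figure D1:**
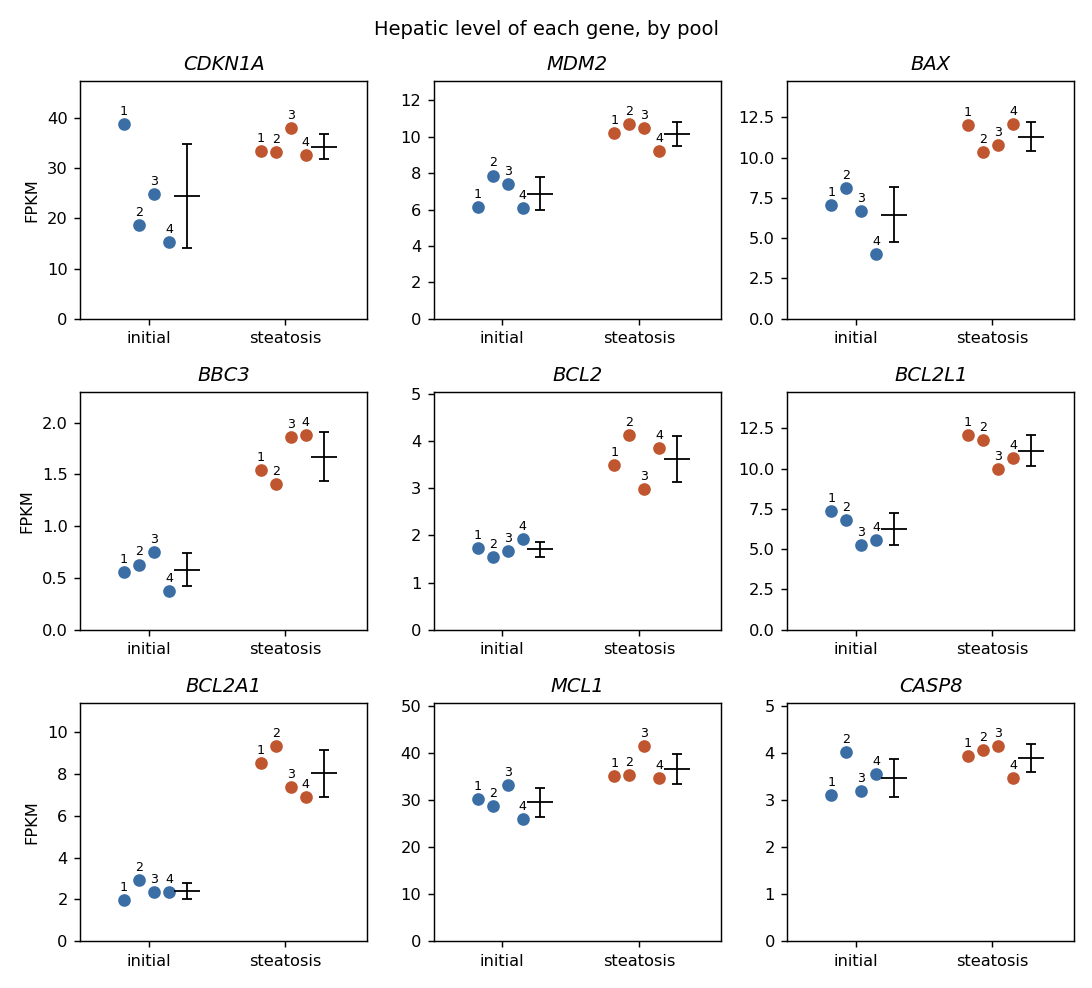
Level of each of the 9 genes in FPKM (vertical axes, linear from 0) in the 4 initial pools (blue) and the 4 steatosis pools (orange), each point being a pool of 2 pigs with its number, and the bar beside the points giving mean and SD. The groups are apart in 7 genes and overlap for CDKN1A, where initial pool 1 stands at 38.85 FPKM, and for CASP8.

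Among the p53 targets, CDKN1A encodes p21, the inhibitor of cyclin-dependent kinases through which p53 arrests the cell cycle. Its level was 38.85, 18.64, 24.85 and 15.38 FPKM in initial pools 1 to 4 and 33.37, 33.17, 37.96 and 32.68 FPKM in the steatosis pools of the same numbers. Initial pool 1 was above all steatosis pools, whereas the other initial pools were below all of them. The mean was 24.4 ± 10.4 FPKM (SD, n = 4 pools) in the initial state and 34.3 ± 2.46 in steatosis, and the log2 fold change of 0.58 had an interval from 0.04 to 1.11 and an adjusted p of 0.0984. Levels were higher in steatosis in 3 of the 4 comparisons of pools with the same number (exact permutation test of the means, two-sided p = 0.1429). Without pool 1 of the initial state the log2 fold change was 0.83 and the adjusted p 0.00518. Without pool 4 of the initial state they were 0.38 and 0.22. Over the fits that each left out 1 library the adjusted p ranged between these values, from 0.00518 to 0.22. After scaling by median ratio the log2 fold change was 0.3 (adjusted p = 0.396). The coefficient of variation between pools was 42.5% in the initial state and 7.17% in steatosis. CDKN1A (gene 100152215) lies on chromosome 7 of Sscrofa11.1, from 32354776 to 32363771.

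MDM2 encodes the ubiquitin ligase that marks p53 for degradation, and p53 activates it in a feedback loop. MDM2 measured 6.15, 7.87, 7.38 and 6.06 FPKM initially (pools 1 to 4) and 10.2, 10.71, 10.49 and 9.22 FPKM after the diet. All 4 steatosis pools were higher than any initial pool, with narrow spreads in both groups. The mean rose from 6.86 ± 0.901 to 10.2 ± 0.657 FPKM (SD, n = 4), and limma gave a log2 fold change of 0.56 with an SE of 0.12 and an adjusted p of 0.00631. Relative to the median shift of all genes the change of MDM2 was 0.31, and after scaling by median ratio its log2 fold change was 0.3 with an adjusted p of 0.0477. MDM2 (gene 100125959) lies on chromosome 5, from 33105717 to 33137602.

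BAX is the pore-forming effector of mitochondrial apoptosis. It measured 7.04, 8.09, 6.69 and 4.03 FPKM initially (pools 1 to 4) and 12, 10.35, 10.77 and 12.09 FPKM after the diet. Initial pool 4 was the lowest, and the groups were apart. From 6.46 ± 1.73 FPKM BAX rose to 11.3 ± 0.875 FPKM (SD, n = 4), and limma gave a log2 fold change of 0.84 with an SE of 0.19 and an adjusted p of 0.0107. BAX thus rose but was past neither of the 2 limits. Without initial pool 4 the log2 fold change was 0.63 (adjusted p = 0.00396).

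BBC3 encodes PUMA, the BH3-only protein by which p53 sets off the mitochondrial route. It was the least abundant of the 9 genes in both groups, at 0.56, 0.63, 0.75 and 0.37 FPKM initially and 1.54, 1.41, 1.86 and 1.88 FPKM after the diet. Even the lowest steatosis pool was well above the highest initial pool. The mean rose from 0.578 ± 0.159 to 1.67 ± 0.234 FPKM (SD, n = 4), and the log2 fold change was 1.41 with an SE of 0.21 (adjusted p = 0.00125). In the 4 comparisons of same-numbered pools the ratio was 2.75, 2.24, 2.48 and 5.08, the largest being that of pool 4. With 1 in place of 0.1 as the constant added to FPKM, the log2 fold change of BBC3 was 0.76, no longer beyond 1. BBC3 (gene 100517403, 53037103 to 53046902) and BAX (gene 396633, 54222341 to 54228150) are both on chromosome 6, 1175.4 kb apart.

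**Figure D2:**
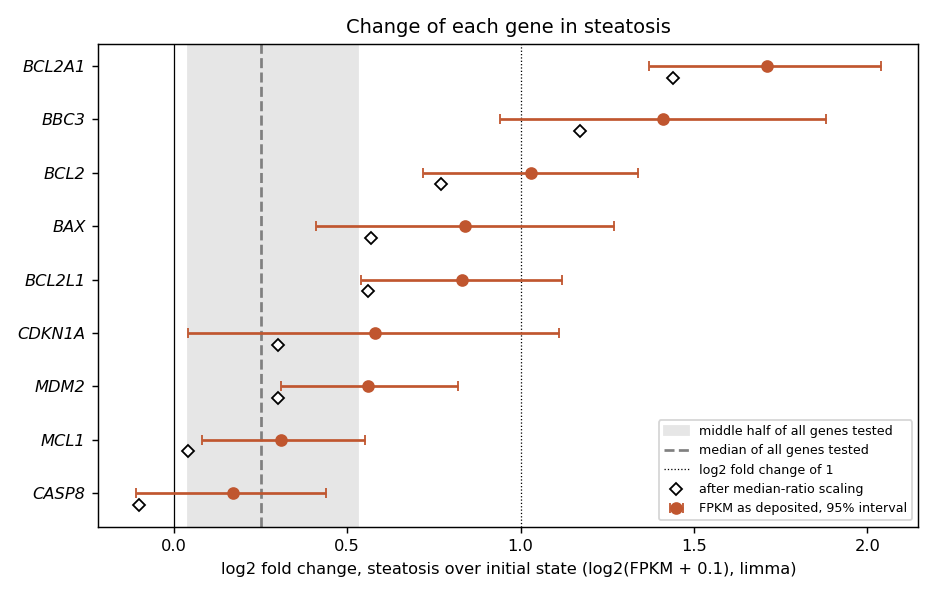
Log2 fold change of steatosis over the initial state for each gene (horizontal axis), with the 95% interval from limma for FPKM as deposited (circles, n = 4 pools per group) and the value after scaling by median ratio (open diamonds). The grey band holds the middle of all genes tested between the quartiles 0.04 and 0.53; BCL2A1, BBC3, BCL2 and BCL2L1 have intervals entirely above it, and the diamonds of MCL1 and CASP8 are near 0.

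In the survival branch of the BCL2 family, BCL2A1 changed most. It encodes a short relative of BCL2 that is a target of NF-kappa B and is expressed mainly in myeloid and lymphoid cells. BCL2A1 measured 1.98, 2.92, 2.35 and 2.34 FPKM initially (pools 1 to 4) and 8.53, 9.34, 7.36 and 6.89 FPKM after the diet. The gap between the highest initial pool and the lowest steatosis pool was wider than the range within either group. The mean went from 2.4 ± 0.389 to 8.03 ± 1.11 FPKM (SD, n = 4), and limma gave a log2 fold change of 1.71 with an SE of 0.15 and an adjusted p of 7.35e-05. This fold change is above that of 98.2% of all genes tested. BCL2A1 remained past both limits under each alternative tried. BCL2A1 (gene 100156860) is on chromosome 7, from 48887227 to 48897667, and has the shortest listed length of the 9 genes, 620 bp.

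BCL2, the founding member of the family and a protein of the outer mitochondrial membrane, is abundant in lymphocytes and low in hepatocytes. It measured 1.73, 1.54, 1.66 and 1.92 FPKM initially (pools 1 to 4) and 3.49, 4.13, 2.99 and 3.86 FPKM after the diet. No initial pool reached 2 FPKM and all steatosis pools but pool 3 were above 3 FPKM. The mean rose from 1.71 ± 0.159 to 3.62 ± 0.494 FPKM (SD, n = 4), and limma gave a log2 fold change of 1.03 with an SE of 0.14 and an adjusted p of 0.000753. This estimate is just beyond the limit of 1, and without initial pool 2, steatosis pool 2 or steatosis pool 4 it was 0.98, 0.97 and just under 1, where BCL2 was no longer past both limits but had still risen (adjusted p up to 0.00403). BCL2 (gene 100049703) spans 158337403 to 158518214 on chromosome 1.

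BCL2L1 encodes BCL-xL, a main survival protein of hepatocytes, and in another splice form a shorter protein with the opposite effect. The deposited value sums 13 transcripts of the gene, so that the splice forms cannot be told apart. BCL2L1 measured 7.34, 6.79, 5.27 and 5.57 FPKM initially (pools 1 to 4) and 12.08, 11.75, 9.97 and 10.65 FPKM after the diet. Pools 1 and 2 were the highest in both groups, and the ratio of same-numbered pools stayed between 1.65 and 1.91. The mean rose from 6.24 ± 0.984 to 11.1 ± 0.977 FPKM (SD, n = 4), and limma gave a log2 fold change of 0.83 with an SE of 0.13 and an adjusted p of 0.00167. BCL2L1 (gene 397536) is on chromosome 17, from 35366139 to 35415798.

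MCL1, a short-lived survival protein on which hepatocytes depend, was the most abundant of the 9 genes in both groups. It measured 30.2, 28.8, 33.18 and 25.88 FPKM initially (pools 1 to 4) and 35.14, 35.33, 41.51 and 34.65 FPKM after the diet. The groups were apart, although the gap between the highest initial pool and the lowest steatosis pool was small. The mean rose from 29.5 ± 3.03 to 36.7 ± 3.25 FPKM (SD, n = 4), and limma gave a log2 fold change of 0.31 with an SE of 0.1 and an adjusted p of 0.0469. This fold change is 0.06 above the median of all genes. After scaling by median ratio the log2 fold change was 0.04 (adjusted p = 0.799), and of the 8 fits without 1 library only that without initial pool 3 kept an adjusted p under 0.05, the range being 0.0337 to 0.128. MCL1 (gene 397648) is on chromosome 4, from 98562092 to 98567014.

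Since the rises differed in size, the make-up of the survival transcripts shifted, which is a description chosen after the values were seen and carries no test. The summed FPKM of BCL2, BCL2L1, BCL2A1 and MCL1 was 35.7 to 42.5 in the initial pools and 56 to 61.8 in steatosis. MCL1 held 71.9% to 78.1% of this sum in the initial pools and 58.3% to 67.1% in steatosis. BCL2A1 held 4.8% to 7.29% and then 11.9% to 15.4%, so that its share did not overlap between groups. The shares of BCL2L1 (12.4% to 17.8%, then 16.1% to 20.4%) and BCL2 (3.85% to 5.38%, then 4.84% to 6.89%) did overlap.

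The ratio of BAX to BCL2, often taken as a measure of readiness for apoptosis, does not depend on scaling between libraries. It was 4.07, 5.25, 4.03 and 2.1 in the initial pools and 3.44, 2.51, 3.6 and 3.13 in steatosis. The steatosis pools all lay within the range of the initial ones. The mean log2 ratio was 1.87 (SD 0.57, n = 4) in the initial state and 1.65 (SD 0.23, n = 4) in steatosis (difference -0.22, exact permutation test, two-sided p = 0.5143), so no difference was detected at this number of pools. It ranged from -0.49 to -0.05 over the fits without 1 library, the value without initial pool 4 being -0.49 and that without initial pool 2 being -0.05. Set against the sum of the 4 survival genes, BAX came to 11.3% to 20.2% in the initial pools and 17.1% to 21.6% in steatosis, whereas BBC3 came to 1.04% to 1.77% and 2.33% to 3.35%, without overlap.

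**Figure D3:**
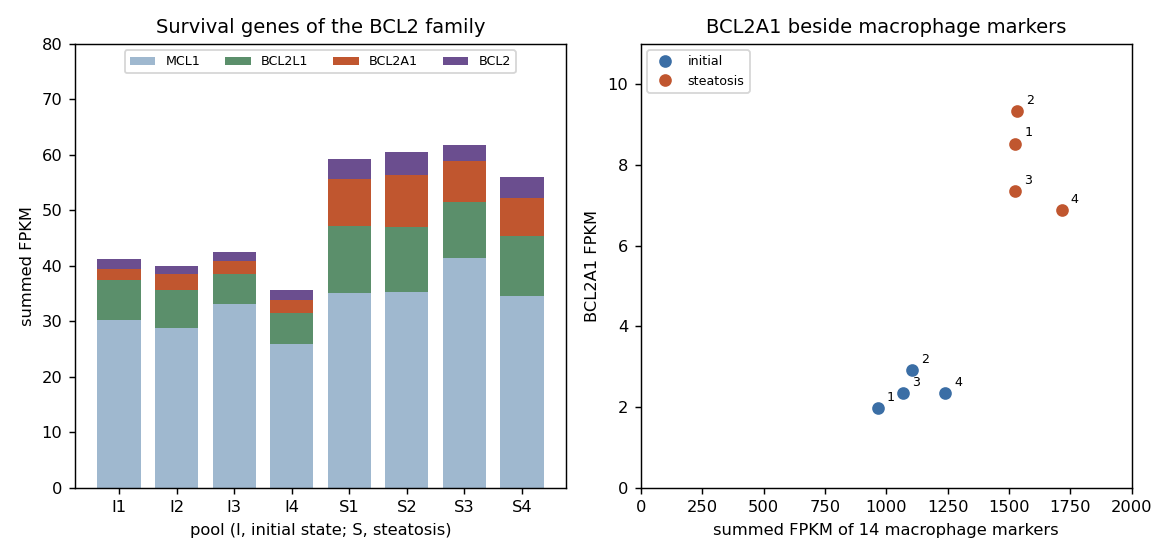
Left, summed FPKM of MCL1, BCL2L1, BCL2A1 and BCL2 in each pool as stacked bars from 0; all steatosis bars (56 to 61.8) exceed all initial bars (35.7 to 42.5). Right, BCL2A1 in FPKM against the summed FPKM of 14 macrophage markers, 1 point per pool with its number; the steatosis pools are higher on both axes.

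Because BCL2A1 and BCL2 are known mainly from leukocytes, markers of leukocytes were read in the same libraries. In bulk tissue, fewer cells of a type and less RNA per cell cannot be told apart. Of 14 macrophage markers tested 10 rose (71.4%, against 26.7% of all genes) and none fell. Their summed level was 965 to 1240.3 FPKM in the initial pools and 1523.9 to 1715.6 in steatosis, 1.44 times higher on average. The most abundant were the complement genes C1QB (293 and 453 FPKM, log2 fold change 0.64, adjusted p = 0.00271), C1QC (227 and 307 FPKM, 0.44, adjusted p = 0.0211) and C1QA (200 and 208 FPKM, 0.07, adjusted p = 0.73). BCL2A1 per 100 FPKM of macrophage markers was 0.189 to 0.264 in the initial pools and 0.402 to 0.61 in steatosis, so that BCL2A1 was higher in steatosis also relative to this sum. The sum is dominated by the complement genes and CD14, and markers with larger estimates than BCL2A1 weigh little in it. These were CD68 (gene 103158530, 11.3 ± 2.88 and 47 ± 16.5 FPKM, log2 fold change 2.01, adjusted p = 0.00076) and MARCO (5.87 ± 1.25 and 63.3 ± 30.3 FPKM, 3.33, adjusted p = 6.19e-05). Among its selected transcripts the study reports CD68 under another gene ID, with a larger rise, and that row is not in the marker list. The study also lists the gene ID used here, among the differentially expressed genes of the lysosome pathway.

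Of the 11 T and NK cell markers 3 rose (27.3%, near the 26.7% of all genes) and none fell, and their summed level was 52.3 to 84.9 FPKM and then 104 to 111 FPKM. NKG7, a granule gene of cytotoxic cells, measured 13.5 and 34.6 FPKM (log2 fold change 1.36, adjusted p = 6.15e-05), CD4, which macrophages of some species also express, 8.21 and 18.1 FPKM (1.12, adjusted p = 0.00099) and CD247 11.3 and 15.3 FPKM (0.43, adjusted p = 0.133). Markers of B cells went the other way, for 3 of the 5 that passed the filter fell and none rose. Over all genes tested 2.28% fell. The summed level of the B cell markers was 18.7 to 48.4 FPKM in the initial pools and 12.8 to 17.1 in steatosis. The genes that fell were JCHAIN (24.4 and 11.7 FPKM, log2 fold change -0.96, adjusted p = 0.0273), CD79A (1.82 and 0.79 FPKM, -1.08, adjusted p = 0.0331) and MS4A1 (1.39 and 0.497 FPKM, -1.23, adjusted p = 0.00937), and CD79B was at 1.41 and 0.715 FPKM (-0.8, adjusted p = 0.0666). Of 6 neutrophil markers that passed the filter 2 rose (33.3%, near the 26.7% of all genes) and none fell. The most abundant were FCGR3A (55.2 and 126 FPKM, log2 fold change 1.2, adjusted p = 0.000173), which macrophages and NK cells also express, S100A12 (3.04 and 3.19 FPKM, 0.06, adjusted p = 0.915) and CSF3R (1.44 and 4.07 FPKM, 1.49, adjusted p = 0.00228). The neutrophil granule genes MPO, ELANE and MMP8 did not pass the filter, and the summed level of the list, 59.8 to 72.1 FPKM in the initial pools and 119 to 150 in steatosis, was mostly FCGR3A. S100A8, S100A9, S100A12 and CXCR2 did not pass the test. In the hepatocyte list 2 of 11 rows rose (18.2%, against 26.7% of all genes) and none fell. Both were rows of TF, which is listed under 2 gene IDs. The summed level of this list was 57501.5 to 89816.5 FPKM in the initial pools and 51373.4 to 62905.7 in steatosis. The albumin gene ALB had a log2 fold change of -0.4 (adjusted p = 0.168), TTR of -0.03 and APOA1 of 0.05. No marker of any list was at 0 in all libraries. The part of these cell types in the changes of BCL2A1, BCL2 and the other genes was not tested.

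At the death receptor, CASP8 is the caspase that FAS and its relatives recruit and activate. CASP8 measured 3.1, 4.01, 3.19 and 3.55 FPKM initially (pools 1 to 4) and 3.92, 4.05, 4.14 and 3.47 FPKM after the diet. The ranges overlapped, and steatosis pool 4 was below initial pool 4. The means were 3.46 ± 0.414 and 3.9 ± 0.297 FPKM (SD, n = 4), and the log2 fold change of 0.17 had an interval from -0.11 to 0.44 (adjusted p = 0.324). After scaling by median ratio or by upper quartile it was -0.1 or -0.06, so that no direction is given. CASP8 (gene 595105, 104923659 to 104948470) lies on chromosome 15, in a row with CASP10, another initiator caspase (gene 100154896, ending 27.7 kb before it), and CFLAR, the catalytically inactive inhibitor of CASP8 (gene 414381, ending 22.5 kb before CASP10). CFLAR measured 19.7 ± 1.03 and 22.8 ± 2.02 FPKM (log2 fold change 0.21, adjusted p = 0.118), which was -0.06 after scaling by median ratio and -0.03 by upper quartile, and CASP10 5.96 and 7.23 FPKM (log2 fold change 0.3, adjusted p = 0.201). None of the 3 neighbours passed the test.

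By level, the order in the initial state was MCL1, CDKN1A, MDM2, BAX, BCL2L1, CASP8, BCL2A1, BCL2 and BBC3, from 29.5 down to 0.578 FPKM. The ranges of MCL1 and CDKN1A overlapped, as did those of MDM2 and BAX and of BAX and BCL2L1. In steatosis the order was MCL1, CDKN1A, BAX, BCL2L1, MDM2, BCL2A1, CASP8, BCL2 and BBC3, from 36.7 down to 1.67 FPKM. There the ranges of MCL1 and CDKN1A overlapped, as did those of each neighbouring pair from BAX to BCL2A1 and those of CASP8 and BCL2. BCL2A1 thus stood below CASP8 in the initial state, where their ranges were apart, and above it in steatosis, where they were again apart.

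Other p53 targets and regulators were read from a list of 27 genes written by function. Of the 23 that passed the filter 5 rose, none fell and 18 did not pass the test, and the median log2 fold change was 0.15. The share that rose was 21.7%, against 26.7% of all genes. With scaling by median ratio 4 rose and 2, PERP and TIGAR, fell. MDM4, the partner of MDM2 in restraining p53, was at 5.37 ± 1.06 and 5.02 ± 0.614 FPKM (log2 fold change -0.08, adjusted p = 0.731), and its estimate was 0.01 without steatosis pool 4.

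PHLDA3, which p53 induces to restrain the kinase AKT, changed most in this list, from 3.63 ± 0.375 to 13.4 ± 2.95 FPKM (SD, n = 4 pools), with 1.84 as its log2 fold change (adjusted p = 7.79e-05). FAS, the death receptor that is also a p53 target, rose from 1.53 ± 0.0829 to 3.4 ± 0.0866 FPKM (1.1, adjusted p = 0.000163), with very little spread between pools. CCNG1, an atypical cyclin and p53 target, rose from 38.4 ± 1.82 to 63.7 ± 1.5 FPKM (0.73, adjusted p = 0.000189). The nuclease gene AEN rose from 3.16 to 5.74 FPKM (0.88, adjusted p = 0.00723) and ZMAT3, an RNA-binding zinc finger gene, from 1.53 to 2.52 FPKM (0.68, adjusted p = 0.00497). PHLDA3 and FAS were past both limits, FAS no longer after scaling by median ratio (0.84). With that scaling AEN was at 0.61 and missed an adjusted p of 0.05 (0.0507).

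A number of p53 targets that also respond to other stresses varied widely between the initial pools, and they are named here after their values were seen. TP53INP1, a p53-induced nuclear protein, measured 150.37, 47.48, 47.41 and 24.1 FPKM in initial pools 1 to 4 and 32.31 to 66.36 in steatosis. SESN2, a stress-induced regulator of mTORC1, measured 12.47, 4.85, 3.94 and 1.88 FPKM and then 2.81 to 4.95. GADD45A, a gene of the DNA damage response, measured 13.83, 10.15, 6.71 and 2.93 FPKM and then 5.01 to 6.89. As with CDKN1A, the initial pools were highest in pool 1 and lowest in pool 4, and the steatosis pools lay between them. The antiproliferative gene BTG2 (39.42 to 169.91 FPKM in the initial state, 42.68 to 99.57 in steatosis) and the kinase gene PLK3 (1.86 to 6.84 and 2.41 to 2.97 FPKM) had the same order of these pools. In all, 8 of the 23 genes of the list (34.8%) were highest in pool 1 and lowest in pool 4 among the initial pools, against 16.5% of all genes tested, and pool 4 was the lowest for 51.1% of all genes. The 8 include PHLDA3, whose initial pools lay close together (3.11 to 4 FPKM). Without initial pool 4, GADD45A and PLK3 fell (log2 fold changes -0.75 and -1.02, adjusted p = 0.042 and 0.00232). Among the 9 genes CDKN1A alone had this order.

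**Figure D4:**
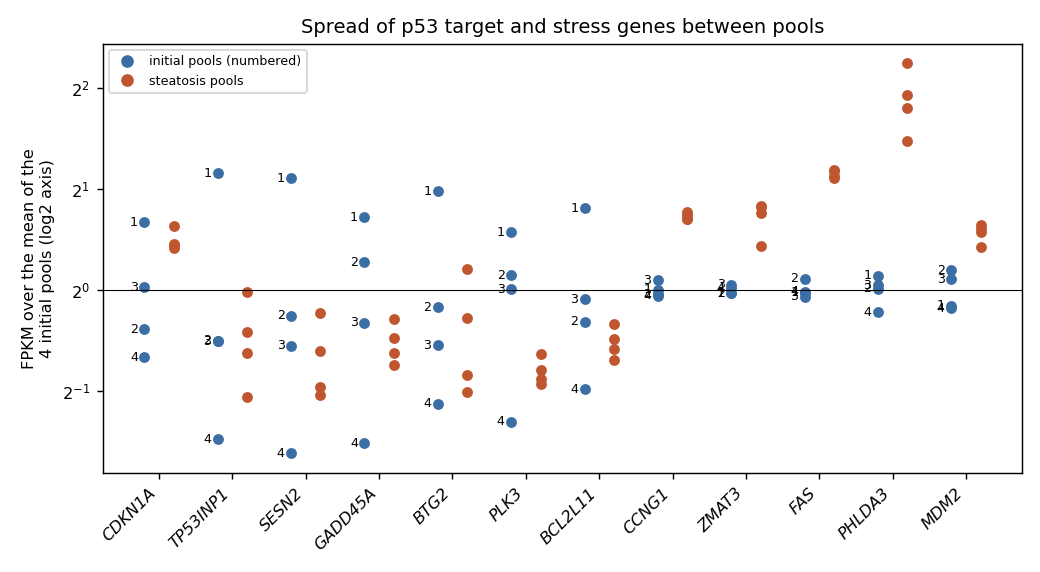
FPKM of CDKN1A, MDM2 and 10 other genes in each pool, divided by the mean of the 4 initial pools of the gene (vertical axis, log2 scale), with initial pools in blue and numbered and steatosis pools in orange; the genes were picked after their values were seen. From CDKN1A to BCL2L11 initial pools 1 and 4 are the extremes of their group and lie far apart. CCNG1, ZMAT3, FAS, PHLDA3 and MDM2 have narrow initial pools and higher steatosis pools. For PHLDA3 too, initial pools 1 and 4 are the extremes.

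Of the other BCL2 family genes, 13 of the 17 written in the list passed the filter, of which 4 rose (30.8%, near the 26.7% of all genes) and none fell, with a median log2 fold change of 0.25, equal to that of all genes. With scaling by median ratio 2 rose and none fell. BAK1, the effector that acts in parallel to BAX, rose from 2.87 ± 0.232 to 5.95 ± 0.724 FPKM (SD, n = 4 pools), with 1.02 as its log2 fold change (adjusted p = 0.000449). It was past both limits, but its estimate was under 1 without initial pool 1, steatosis pool 2 or steatosis pool 3 (lowest value 0.97). The BH3-only genes BMF and BAD rose from 3.54 to 6.74 FPKM (0.94, adjusted p = 0.00271) and from 4.91 to 7.45 FPKM (0.61, adjusted p = 0.0138), and BNIP3, a BH3-like gene of mitophagy, from 71.8 to 88.1 FPKM (0.3, adjusted p = 0.0395). After scaling by median ratio BNIP3 was at 0.02 (adjusted p = 0.913) and BAD at 0.34 (adjusted p = 0.0533).

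Other BH3-only genes did not pass the test or the filter. BCL2L11, which encodes BIM, measured 4.82, 2.21, 2.58 and 1.39 FPKM initially and 1.7, 2.17, 1.96 and 1.83 FPKM after the diet (log2 fold change -0.37, adjusted p = 0.382). PMAIP1, which encodes NOXA and is, like BBC3, a p53 target, was at 1.26 ± 0.473 and 1.46 ± 0.478 FPKM (0.21, adjusted p = 0.603), and at -0.05 after scaling by median ratio and -0.01 by upper quartile. HRK, named after its values were seen, was at 0.07, 0.02, 0.02 and 0.01 FPKM in the initial pools and at 0.96, 0.85, 1.2 and 0.21 FPKM in steatosis, without overlap. It reached 0.3 FPKM in only 3 libraries, steatosis pool 4 being below, and so was not tested.

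**Figure D5:**
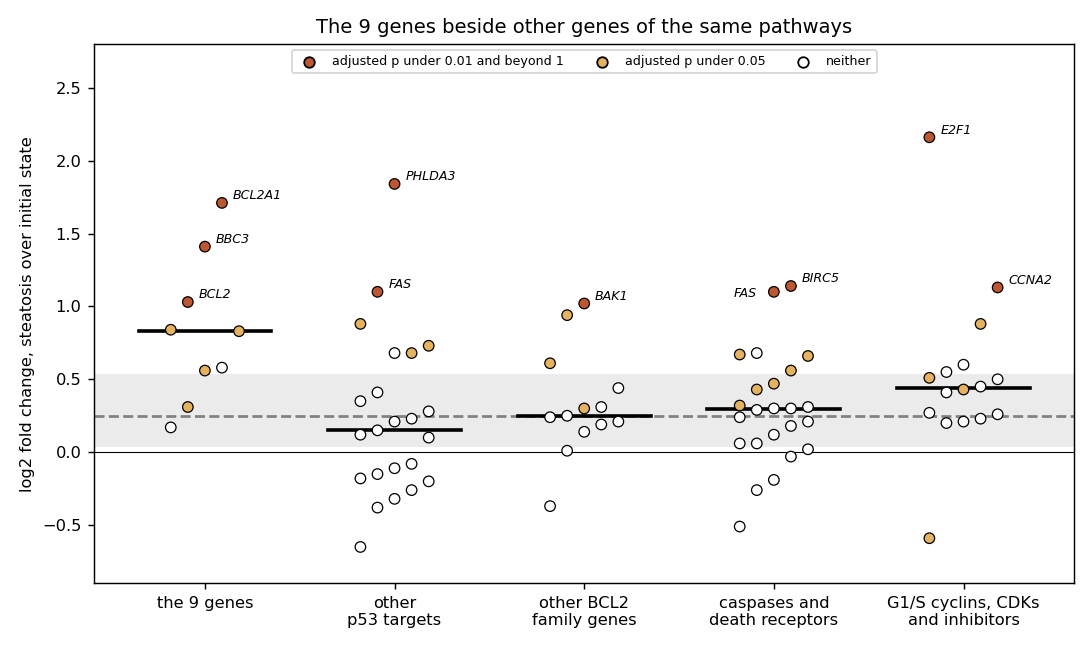
Log2 fold change of steatosis over the initial state (vertical axis) for the 9 genes and for the genes of 4 lists of the same pathways, 1 point per gene tested, coloured by whether it passed both limits, an adjusted p under 0.05 or neither, with the median of each list as a bar. The dashed line and grey band are the median (0.25) and quartiles (0.04 and 0.53) of all genes tested; the median of the 9 genes (0.83) is above the band and the medians of the lists (0.15 to 0.44) are within it.

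In the list of caspases, death receptors and inhibitors of apoptosis, 24 genes passed the filter, of which 8 rose and none fell, with a median log2 fold change of 0.29. The share that rose, 33.3%, was near that of all genes (26.7%). With scaling by median ratio 3 rose and 3, CYCS, AIFM1 and ENDOG, fell. FAS and BIRC5 were past both limits, and neither was after scaling by median ratio. BIRC5, which encodes survivin, an inhibitor of apoptosis made by dividing cells, rose from 4.06 ± 0.377 to 9.06 ± 0.775 FPKM (log2 fold change 1.14, adjusted p = 0.000146). BIRC3, another inhibitor of apoptosis and a target of NF-kappa B, rose from 11.7 to 18.6 FPKM (0.66, adjusted p = 0.00195). The receptor gene TNFRSF1A rose from 23.3 to 34.4 FPKM (0.56, adjusted p = 0.00398) and its adaptor TRADD from 6.56 to 9.12 FPKM (0.47, adjusted p = 0.0082). CASP9, the initiator caspase of the mitochondrial route, rose from 1.6 to 2.58 FPKM (0.67, adjusted p = 0.012). The estimates of TNFRSF1A, TRADD and CASP9 missed an adjusted p of 0.05 after scaling by median ratio (0.0507, 0.103 and 0.0672).

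CDKN1A acts on the kinases of the G1 and S phases. In a list of these kinases, their cyclins and inhibitors and the genes E2F1, RB1 and PCNA, 16 genes passed the filter. Of these 5 rose and 1 fell, with a median log2 fold change of 0.44. The share that rose, 31.2%, was near the 26.7% of all genes, of which 2.28% fell. With scaling by median ratio 3 rose and 1 fell. E2F1, the transcription factor that opens S phase, rose from 0.318 ± 0.0822 to 1.74 ± 0.176 FPKM (log2 fold change 2.16, adjusted p = 8.14e-05) and CCNA2, the S phase cyclin, from 1.04 ± 0.117 to 2.41 ± 0.301 FPKM (1.13, adjusted p = 0.000658). The initial pools of E2F1 were at 0.23 to 0.41 FPKM, on both sides of the filter limit of 0.3, where the added constant weighs on the fold change. CDKN2C, an inhibitor of CDK4 and CDK6, rose from 3.37 to 6.3 FPKM (0.88, adjusted p = 0.00123), and the cyclin D gene CCND3 from 14.3 to 20.5 FPKM (0.51, adjusted p = 0.011), which after scaling by median ratio was at 0.24 (adjusted p = 0.205). CDK2, a kinase that p21 inhibits, rose from 6.1 to 8.17 FPKM (0.43, adjusted p = 0.0483), with overlapping ranges. CDK2 was at 0.16 (adjusted p = 0.47) after scaling by median ratio, and without initial pool 4 at 0.41 (adjusted p = 0.0837). CDKN1C, the relative of CDKN1A that encodes p57, was the gene that fell, from 1.38 to 0.865 FPKM (-0.59, adjusted p = 0.0402), and it had an adjusted p over 0.05 in 6 of the 8 fits without 1 library.

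The genes whose profiles over the 8 libraries were most like those of the 9 were sought among 10581 named genes with a mean of at least 1 FPKM, by Pearson correlation of log2(FPKM + 0.1), which is a description over 8 libraries in which the 2 groups differ. For CDKN1A they were DDX42, NEDD4L and ENHO (0.974 to 0.987), and for MDM2 FUCA1, LRAT and JAML (0.992 to 0.996). BAX was nearest to NRBP2, TBC1D10B and MED24 (0.991 to 0.995), and BBC3 had NSD2 (0.994) and ENG (0.992) among its nearest. For BCL2A1 they were ARMC10, RAB31 and HCLS1 (0.994 to 0.998), the last being a leukocyte gene, and for BCL2 they were NPC2, CLEC7A and INMT (0.984 to 0.985), of which NPC2 is a lysosomal cholesterol carrier and CLEC7A a receptor of myeloid cells. BCL2L1 was nearest to CTNNA1, APP and ZDHHC13 (0.983 to 0.991), MCL1 to CDC14A, KLHL5 and NDRG2 (0.972 to 0.986), and CASP8 to AP5S1, FOXN2 and C1H6orf120 (0.956 to 0.97). No gene among the 9 was among the nearest of another.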

How the data were processed

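Hepatic poly-A RNA was sequenced by the authors as paired reads on a DNBseq instrument, 1 library per pool of 2 pigs. Per the labels and the study's methods, reads were filtered, mapped with HISAT2 2.0.4 to Sus scrofa 11.1, joined by newly assembled coding transcripts, mapped to that reference with Bowtie2 2.2.5 and quantified with RSEM 1.2.12, and the authors deposited FPKM values of 18103 genes, 325 of them new transcripts. How FPKM were scaled between libraries is not given in the sources used here, and read counts were not used here. Lengths in bases were taken from the authors' comparisons of same-numbered pools, whose fold changes, p-values and FDR were not used. Gene coordinates are those of RefSeq Sscrofa11.1. How strand was treated in counting is not given in the sources used here.

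The groups of the labels (4 initial, 4 steatosis) were fitted by limma 3.58.1 (R 4.3.3), with a mean-variance trend and the group as the only term, on log2(FPKM + 0.1), a scale that understates changes of low genes. Single genes and the BAX to BCL2 ratio were compared by two-sided exact permutation tests, which did not pair the pools. The fit was tested first on simulated data with known changes of 2 in log2, up or down. There 168 of 189 changed genes (88.9%) were recovered among 12998 tested and 0 unchanged genes were called. The planted changes were larger than those of the genes described, so recovery of smaller changes was not measured. The labels number the pools 1 to 4 in each group. Same-numbered pools deviated together from their group means (correlation 0.163 to 0.35, at most 0.0276 for other numbers) and were taken as pairs, so a blocked fit on pool number was made as an alternative. The others were 3 scalings, 2 filters, 2 added constants and each library left out.

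The 9 genes and the lists were chosen with earlier results of these data known, by function and not by how genes moved. Named were the 9 genes, MDM4, BAK1, BCL2L11, PMAIP1, CFLAR and FAS whatever their values, up to 5 further genes with an adjusted p under 0.05 per pathway list by size of change, the 3 most abundant markers per cell type and the 3 genes most alike to each of the 9. HRK, CASP10, CDK2, CD68, MARCO, MS4A1, the genes with wide initial spread and those that fell under another scaling were named after their values were seen. List symbols with no row of that name were EDA2R, TNFRSF10B, BIK, BCL2L2, BIRC2, CDK6 and CDKN2A, which were not analysed here. A few further genes that the lists and the naming rule would include are not reported here, and the list counts are without them.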

Additional observations from a re-analysis of the deposited data

Results flagged for a closer look

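Of 106 groups of 4 pools examined, 9 held a pool that stood apart from the other 3 by Dixon's criterion at 95%, which chance alone passes in about 1 group of 20. Among the genes described, steatosis pool 3 was highest for CDKN1A (38 FPKM, the others 32.7 to 33.4) and for MCL1 (41.5 FPKM, the others 34.6 to 35.3). Steatosis pool 4 was lowest for MDM4 (4.1 FPKM, the others 5.29 to 5.37). Initial pool 1 was lowest for BIRC3 (9.87 FPKM, the others 12.3 to 12.4) and highest for CDKN1C (1.9 FPKM, the others 1.16 to 1.25). The B cell marker CD79B was highest in initial pool 3 (2.5 FPKM, the others 0.95 to 1.18).

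Initial pool 4 was highest for ALB (71002.9 FPKM, the others 41268.1 to 45743.2) and for the summed hepatocyte markers (89816.5 FPKM, the others 57501.5 to 62820.7). The summed macrophage markers were highest in steatosis pool 4 (1715.6 FPKM, the others 1523.9 to 1532.2).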

How the results depend on the processing

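Among the 9 genes, the replicate block (pool number as a term) changed no call, with 3 past both limits and 7 risen as without it, and it left the BAX to BCL2 difference at -0.22 (sign flips of the 4 pairs, exact two-sided p = 0.625). With 1 as the added constant 1 gene, BCL2A1, was past both limits, and the count was 2 without initial pool 2, steatosis pool 2 or steatosis pool 4. For estimates of single genes, 469 kept direction and side of the threshold, 35 lost the adjusted p of 0.05, 1 (CDKN1A without initial pool 1) gained it and 7 turned, none of them called. By upper quartile and median ratio these were CASP8 (-0.06 and -0.1), PMAIP1 (-0.01 and -0.05) and CFLAR (-0.03 and -0.06). MDM4 ranged from -0.22 to 0.01 over the fits without 1 library, turning without steatosis pool 4. Of the remaining checks, those of the counts and of the BAX to BCL2 ratio among them, 372 stayed within the limit set for them (1.5 times for a count) and 39 did not. Past both limits and higher, the p53 list had 1 gene under upper quartile, median ratio and a constant of 1, the cyclin list likewise 1, the other BCL2 family 0 and the caspase list 0. The other BCL2 family had 2 without a filter on low values and 0 to 2 over the fits without 1 library. At an adjusted p under 0.05, the other BCL2 family had 2 higher under median ratio, the caspase list 4 and 3 higher and 3 and 3 lower under upper quartile and median ratio, and the cyclin list 3 higher under both. The p53 list had 2 lower under both scalings. The cyclin list had 0 lower with a common sum or no filter. The replicate block gave 1 lower in the caspase list (CYCS). Over the fits without 1 library, lower counts were 0 to 2 in the p53 list (2, of which 1 past both limits, without initial pool 4, against 0 otherwise), 0 to 1 in the caspase list (1 without initial pool 3) and 0 to 1 in the cyclin list. Apart from what the construction of an alternative shows, the cause was not tested. How far read depth limits each gene was not measured.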
